A study of Homo sapiens with 3 samples.

Results

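EP300 ChIP-seq peaks assigned to microRNA genes were examined in naive human embryonic stem cells. The members are all peaks on chromosomes 1 to 22 and X whose assigned gene in the authors' annotation has a symbol of MIR followed by a digit, whatever the annotation class, after deposited entries of the same interval had been joined. They were 1177 of 65276 peaks in replicate 1 and 1168 of 64896 in replicate 2, assigned to 462 and 464 genes, with 373 genes in both replicates and 553 in either. Of these peaks, 183 and 174 held several summits. The let-7 genes, whose symbols start with MIRLET7, are outside this choice, as are microRNA genes that the annotation lists under an Ensembl identifier.

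The cells were H9, an established human embryonic stem cell line, of wild-type genotype. They were grown in PXGL, N2B27 medium with PD0325901, XAV939 and Gö 6983, which inhibit MEK, tankyrase and PKC in that order, and human LIF at 10 ng/mL, on mouse embryonic fibroblasts. There were 2 EP300 libraries and 1 input library made with no antibody, all from the same line, genotype and medium, so no second condition is compared. No label says whether separate cultures were used for the replicates, so their spread may be technical only, and the input was not analysed here on its own.

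EP300 is a histone acetyltransferase and coactivator that is recruited by transcription factors to enhancers and promoters, where it acetylates lysine 27 of histone H3. MicroRNAs are cut from hairpins in longer primary transcripts by Drosha and Dicer and pair with target mRNAs mainly through the seed, the bases near their 5′ end. The annotated start of a microRNA gene is the start of its hairpin, which can lie kilobases from the start of the primary transcript, whereas a host transcript (a symbol with HG) is annotated from its own start.

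The mature microRNAs most tied to pluripotent cells belong to families that share a seed, and their sequences are shown to define the groups described below. The sequences are from RefSeq (GRCh38.p14), 5′ to 3′, with the seed (bases 2 to 8) in capitals. The seed AAGUGCU was held by 11 genes of the lists examined, spread over the MIR302 cluster, the MIR371 to MIR373 cluster and the chromosome 19 cluster known as C19MC, and peaks of both replicates lay over the hairpin of 1 of them, MIR372. Over all RefSeq hairpins this share was 11% (211 of 1911). The MIR373 hairpin had a peak over it in replicate 2, and in replicate 1 it lay between peaks of the same merged region. MIR512-1 and MIR512-2, at the 5′ edge of C19MC, make the same mature RNA with a seed shifted by one base. MIR512-2 had a peak over its hairpin in both replicates and MIR512-1 in replicate 2.
miR-302a-3p: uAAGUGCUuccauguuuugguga
miR-372-3p: aAAGUGCUgcgacauuugagcgu
miR-373-3p: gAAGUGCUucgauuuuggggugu
miR-520e-3p: aAAGUGCUuccuuuuugaggg
miR-512-3p: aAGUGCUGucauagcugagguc
The seed AAAGUGC of the MIR17 family was held by 8 genes, none of whose hairpins had a peak over it in both replicates.
miR-17-5p: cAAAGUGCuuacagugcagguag
miR-20a-5p: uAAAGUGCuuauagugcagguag

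The MIR200 family, which represses the transcription factors ZEB1 and ZEB2 in epithelial cells, has a pair of seeds that differ at one base. Of the 3 genes with seed AAUACUG, 2 had a peak over the hairpin in both replicates and the other, MIR200B, had peaks next to it, and both genes with seed AACACUG had a peak over the hairpin in both replicates.
miR-200b-3p: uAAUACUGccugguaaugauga
miR-200c-3p: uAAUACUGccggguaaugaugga
miR-429: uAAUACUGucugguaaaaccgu
miR-200a-3p: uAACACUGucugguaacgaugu
miR-141-3p: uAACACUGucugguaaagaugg
Among microRNAs known for neural cells, MIR9-1, MIR9-2 and MIR9-3 encode the same 5p sequence (seed CUUUGGU, 2 of 3 hairpins with a peak over them in both replicates), and MIR219A1 and MIR219A2 encode the same miR-219a-5p (both with a peak over the hairpin in both replicates).
miR-9-5p: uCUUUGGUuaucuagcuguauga
miR-219a-5p: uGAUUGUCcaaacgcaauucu
miR-153-3p: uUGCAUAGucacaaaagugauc
The strongest regions of microRNA genes proper were assigned to genes of unrelated sequence. MiR-1297 shares the seed UCAAGUA with miR-26a and miR-26b, whose genes MIR26A1 and MIR26B also had regions, and miR-378c shares CUGGACU with MIR378F and MIR378I.
miR-6068: cCUGCGAGucuccggcggugg
miR-1297: uUCAAGUAauucaggug
miR-378c: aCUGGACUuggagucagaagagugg
Of the 314 microRNA genes proper with a region in both replicates, 313 had the same coordinates in RefSeq and 284 had a mature sequence in the table used. They carried 357 distinct seeds, of which 24 were shared by more than 1 gene. The same share over all RefSeq microRNA genes was not computed, so this count describes the members only.

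Merging overlapping peaks of both replicates (at least 1 bp) gave 718 reproducible regions with a microRNA gene assigned in each replicate, of 46263 regions in all. They belonged to 353 genes. Of these, 39 were host transcripts with 86 regions and 314 were microRNA genes proper with 632 regions. Any symbol with HG was put in the host class, also that of an antisense transcript such as MIR1-1HG-AS1. In 2 regions the replicates named different microRNA genes. In another 23 regions the peak of 1 replicate was assigned to a microRNA gene and that of the other was not. Among those, a region of fold enrichment 9.18 in replicate 1 and 9.30 in replicate 2 went to MIR22HG in the first and to WDR81 in the second. Fold enrichment is a value the authors' peak calling gave at the summit. It is used only to describe and rank peaks within a list, and for a peak with several summits is that of the highest. Percentiles below are the lower of a region's percentiles of fold enrichment in the 2 lists.

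The share of microRNA gene peaks found in both replicates was below that of all peaks in each replicate, which is given as a description with no test. In replicate 1, 780 of 1177 (66.3%, Wilson 95% interval 63.5 to 68.9) overlapped a peak of replicate 2, where the share over all peaks was 74.5%. In replicate 2, 762 of 1168 (65.2%, 62.5 to 67.9) did, beside 73.9% of all peaks. The mean share was 65.8% ± 0.73 (SD, n = 2), beside 68.5% for peaks of LINC genes and 68.6% for peaks of antisense genes. Host transcripts, at 73.5% ± 1.6, were near the level of all peaks, and microRNA genes proper were at 64.9% ± 0.64. Within 3 kb of the assigned start the mean share was 71.4% for microRNA gene peaks and 83.8% for all peaks. Beyond 3 kb it was 63.2% and 65.4%. A smaller part of the microRNA gene peaks than of all peaks lay within 3 kb, as given below. The intervals cover counting error only, and neighbouring peaks are not independent. Depth is unknown, since the tables hold no read counts.

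The median fold enrichment over microRNA gene peaks was 3.96 in replicate 1 and 3.98 in replicate 2, against 4.51 over all peaks in each. Host transcripts had a median of 4.83 ± 0.029 and microRNA genes proper of 3.87 ± 0.032 (mean of the 2 medians, SD, n = 2). Among the reproducible regions the median percentile was 58.5 for host transcripts and 38.1 for microRNA genes proper, beside 56.5 for all regions. At or above the 90th percentile were 40 microRNA gene regions (5.57%), of which 13 belonged to host transcripts, beside 11.3% of all regions. Regions of microRNA genes were about as long as the others, with a median of 1069 bp against 1114 bp, and their summits in the 2 replicates lay a median of 91.5 bp apart against 59 bp.

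**Figure D1:**
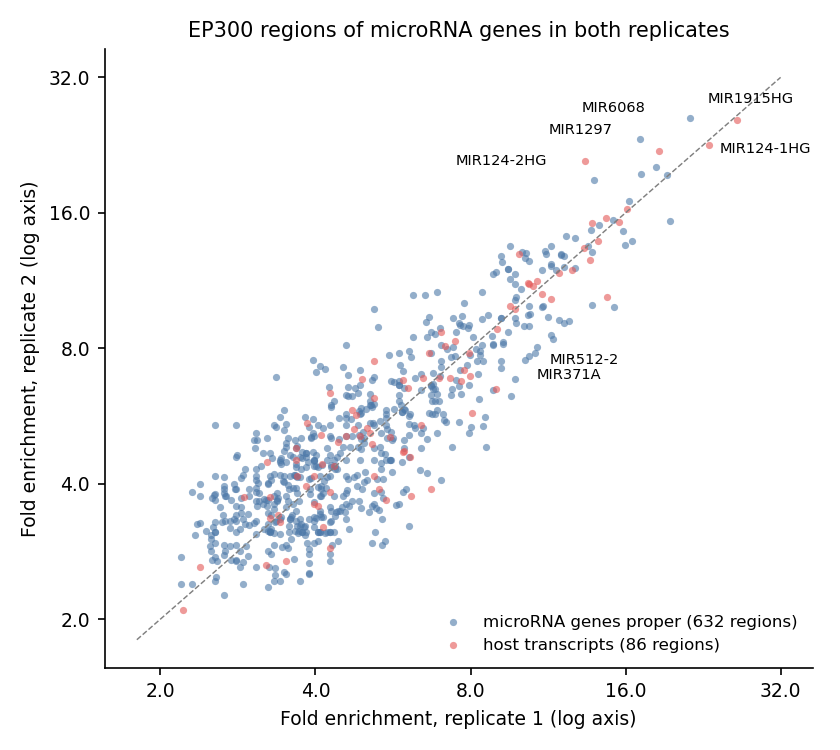
Fold enrichment of the 718 reproducible regions of microRNA genes in replicate 1 (x, log axis) and replicate 2 (y, log axis). Each point is a region, blue for the 632 of microRNA genes proper and red for the 86 of host transcripts, and the dashed line marks equal values. Most regions lie along the line, and MIR1915HG (26.4 and 25.7) is farthest up it.

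The values of the 2 replicates were close. The log2 ratio of replicate 2 over replicate 1 had a median of 0.05 and an SD of 0.34 over the 718 regions, and 63 of them (8.77%) differed by over 1.5-fold, beside 9.55% of all regions. Chromosome 1 held 106 of the regions, 2.34% of all regions of that chromosome, the highest share. Chromosome 3 held 13, which was 0.557%, the lowest share.

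Where the peaks lay depended on the class of gene. In replicate 1, 372 microRNA gene peaks lay within 3 kb of the assigned start, the annotation's promoter class, beside 47.9% of all peaks, and in replicate 2 there were 361, beside 48% of all. The share was 31.3% ± 0.49 (SD, n = 2). Introns held 35.4% ± 0.35 of microRNA gene peaks against 22.3% of all, and distal intergenic sequence held 27.4% ± 0.15 against 24.0%. Exons held 2.94% and 3′ UTRs 1.79%. Among host transcripts 55.5% ± 0.32 of peaks lay within 3 kb of the start, and among microRNA genes proper 28.4% ± 0.55 did.

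The start itself separated the classes further. Peaks that overlapped the assigned start were 33.1% ± 1.5 of host transcript peaks, 6.91% ± 0.52 of peaks of microRNA genes proper and 28.6% ± 0.39 of all peaks. At the start of host transcripts the median fold enrichment was 8.96 in replicate 1 and 8.05 in replicate 2, and 97.4% and 90.5% of these peaks were shared. At the start of a hairpin gene the medians were 4.18 and 4.34, with 84.1% and 77.6% shared. For all peaks at a start the medians were 7.86 and 7.97, with 94.3% and 93.5% shared. Beyond 3 kb the classes had medians of 4.26 for host transcripts, 3.85 for microRNA genes proper and 3.99 for all peaks.

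**Figure D2:**
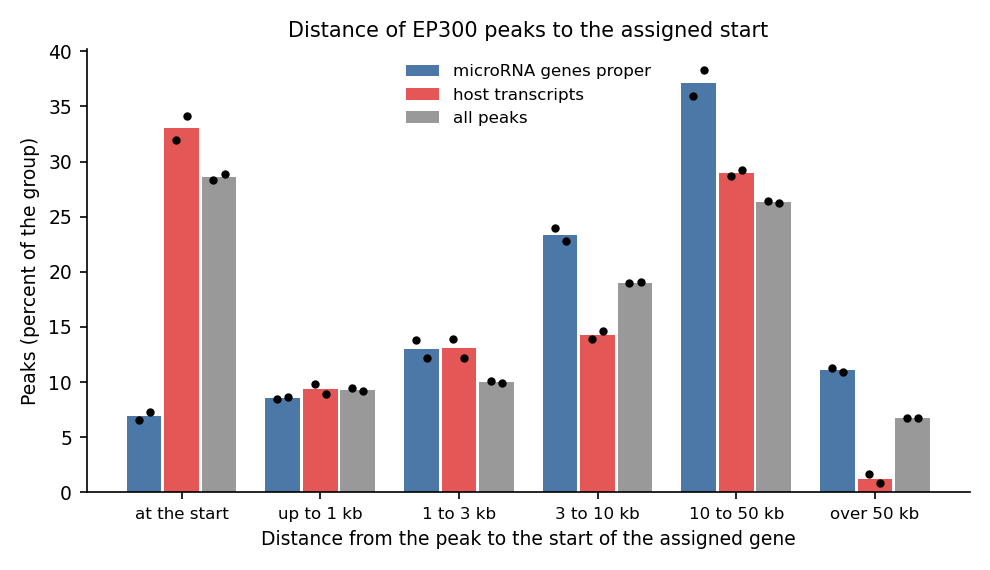
Share of EP300 peaks (percent of each class, y) by distance from the peak to the start of the assigned gene (x), for microRNA genes proper (blue), host transcripts (red) and all peaks (grey). Bars are means of the 2 replicates and dots are the replicates. Host transcripts (33.1%) and all peaks (28.6%) have many peaks at the start, microRNA genes proper few (6.91%).

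The regions were also placed against protein-coding genes, using RefSeq starts and the strand known for 18833 of 19970 genes. Only 10 of the 718 regions (1.39%) lay within 1 kb of a coding start, beside 28.3% of all regions. This is low by construction, because a peak near a coding start is assigned to that coding gene. In the body of a coding gene lay 311 regions (43.3%), beside 58.1% of all. The 58.1% includes regions at coding starts that reach into the gene. Few such regions are assigned to microRNA genes, so these shares are not like for like. Regions over 3 kb long were 35 (4.87%), beside 4.16% of all.

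The strongest region was that of MIR1915HG on chromosome 10 (21493742 to 21497580), with fold enrichment 26.4 in replicate 1 and 25.7 in replicate 2. It overlapped both the start of the host transcript and the MIR1915 hairpin. MIR124-1HG, the host of one of the neuronal miR-124 genes, followed with 23.3 and 22.6. A second region, at a start of this host transcript in the authors' annotation, had 16.1 and 16.3. MIR34AHG, host of miR-34a, a p53-induced microRNA that restrains the cell cycle, had 18.6 and 21.9 at its start (chromosome 1, 9180633 to 9184225). MIR9-1HG had 15.5 and 15.3. MIR124-2HG differed more between replicates, with 13.3 and 20.9. Of the other host transcripts among the 10 strongest regions, MIR23AHG had 14.7 and 15.6, MIR663AHG 13.8 and 15.2, MIR100HG 14.1 and 13.9, and MIR4713HG 13.3 and 13.3. Apart from the MIR23AHG region, which lay 3391 bp from its assigned start, all overlapped the host transcript as placed by the authors' annotation. By RefSeq coordinates the MIR9-1HG region and the second MIR124-1HG region lay outside the host transcript. With the mean over the summits of a peak in place of the highest, the mean of the 2 replicates was 17.3 for MIR1915HG, 14.7 for MIR124-1HG and 9.06 for MIR9-1HG.

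The strongest regions of microRNA genes proper mostly lay away from the hairpin. MIR6068 had 21.4 in replicate 1 and 26.0 in replicate 2 (chromosome 1, 63328528 to 63330811), 2319 bp from its start. The nearest coding start, 5961 bp away, was that of FOXD3, a forkhead factor of pluripotent and neural crest cells. MIR6821 had 19.2 and 19.4, and the nearest coding gene was PIM3, a serine/threonine kinase. MIR5008 had 18.4 and 20.2 at 52979 bp from its start and 58747 bp from that of WNT9A, a Wnt ligand. MIR5584 had 17.1 and 19.5 inside RNF220. MIR1297 had 17.1 and 23.4 in intergenic sequence, 669262 bp from the nearest coding start. MIR200B had 16.3 and 17.0. All 6 of these regions had the higher value in replicate 2, beside 54.5% of the 718 regions and 52.5% of all regions. With the mean over summits MIR5008 was at 10.6 and MIR200B at 7.52 over both replicates.

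In the rest of the 15 strongest, fold enrichment ran from 13.5 to 19.5 in replicate 1 and from 13.5 to 18.96 in replicate 2. MIR153-1, inside PTPRN, had 15.9 and 13.5, and was the one of the 15 whose merged region reached its own hairpin, through the peak of replicate 2. MIR4306 had 13.9 and 18.96 inside CLYBL, MIR6079 16.5 and 13.8 (9.05 over both with the mean over summits) inside ST3GAL3, and MIR6075 14.2 and 15.1 inside LPCAT1. MIR6088 had 13.7 and 14.6 inside ERCC1, a DNA repair gene. MIR6841 had 15.8 and 14.5, with NEFL, a neurofilament gene, as the nearest coding gene. MIR4661 had 19.5 and 15.3, MIR5692B 15.1 and 15.5, and MIR4739 13.5 and 13.5. The strongest peaks found in 1 replicate only were weaker, MIR572 with 8.11 in replicate 2 and MIR378D2 with 7.91, MIR4290 with 7.63 and MIR4436B1 with 6.71 in replicate 1.

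Most genes had a single region, but a few had many. Of the 353 genes, 210 (59.5%) had 1 region and 67 had 2. MIR4739 and MIR378C had 11 each, MIR4689 and MIR595 10 each, MIR5584, MIR4418 and MIR4535 9 each, and MIR5008 was among those with 8. Their regions spread over long distances, 31.3 kb for MIR4739 and 249 kb for MIR378C, and the coding genes nearest to them were few. They were ENPP7 and RBFOX3 for MIR4739, TCERG1L for MIR378C, NPHP4 for MIR4689, PTPRN2 for MIR595, WNT4 for MIR4418 and TAFA5 for MIR4535. The strongest region of each ranged widely. MIR4689 had one with 12.3 and 14.2, MIR378C with 10.7 and 7.81, MIR595 with 7.97 and 7.71, MIR4535 with 8.46 and 5.37, and MIR4418 with 5.84 and 7.34. With the mean over summits MIR378C was at 6.09 and MIR4689 at 8.35 over both replicates, and the regions within 10 kb of the start reached 4.10 for MIR4689 and 3.90 for MIR595.

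Among the stem cell microRNAs, 1 of 10 genes had a region assigned to it, MIR371A. Over all 1984 RefSeq genes whose symbol is MIR and a digit, 17.7% had one, and each list count below is to be read beside that share and, for hairpins, beside the 11%. This region was 7362 bp long (chromosome 19, 53782953 to 53790314) with 10.2 in replicate 1 and 7.53 in replicate 2, at percentile 76.9. Peaks of both replicates lay over the hairpins of MIR371A, MIR371B and MIR372, 3 of the 9 hairpins of the list, and over these the values were 7.09 and 7.53. The MIR302 cluster, which with MIR367 is transcribed from one primary RNA in pluripotent cells, had no region over a hairpin. The nearest region to MIR302B was 4.41 kb away and that to MIR367 5.03 kb away. It was the same region, assigned to LARP7, whose fold enrichment was 15.6 and 11.9, and it lay 2.92 kb from the host transcript MIR302CHG. The cells' labelled identity was also examined at coding genes, where 8 of 8 stem cell markers and 3 of 6 fibroblast markers (COL1A1, COL1A2 and THY1, not COL3A1, POSTN or DCN) had a shared promoter peak, beside 66.9% of all 19970 RefSeq coding genes, matched by symbol. A peak shows occupancy and not expression, and whether chromatin of the mouse feeder cells contributes to any region was not tested.

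In the MIR17 family, which drives proliferation, 1 of 16 genes had a region, the host transcript MIR17HG. It had 9.55 in replicate 1 and 9.95 in replicate 2 over its start, at percentile 85.2, and the hairpins of its cluster lay 1.55 kb (MIR17) to 2.25 kb (MIR92A1) from it. The paralogous X chromosome cluster lay 1.55 kb (MIR106A) to 2.38 kb (MIR363) from a region assigned to an unnamed Ensembl gene, with 5.72 and 7.71. MIR106B, MIR93 and MIR25, which lie in an intron of MCM7, were 3.96 kb to 4.40 kb from a region assigned to COPS6, with 11.2 and 9.32. In each of these clusters the region lay outside the array of hairpins, and only in the first did the annotation name a microRNA gene.

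C19MC is a large primate-specific array of microRNA genes, active in placenta and in naive pluripotent cells. Of its 46 genes 3 had a region: MIR512-2 with 10.8 in replicate 1 and 8.04 in replicate 2, MIR521-1 with 4.26 and 4.62, and MIR1323 with 2.92 and 3.26. The MIR512-2 region was 10418 bp long (chromosome 19, 53661393 to 53671810), the second longest of all microRNA gene regions. Over the window that spans C19MC and the MIR371 to MIR373 cluster, each replicate had 25 peaks, of which 21 and 20 were shared, covering 43258 and 45718 bases. They were at most 10.97-fold enriched in replicate 1 and 13.1-fold in replicate 2.

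Most of the array of hairpins had no peak over it. From 7.20 kb to 77.2 kb after the start of the MIR512-1 hairpin, neither replicate had a peak over 70.0 kb (chromosome 19, 53673875 to 53743902), and 35 of the 46 C19MC hairpins lay there. Over the 8 hairpins past it, from 81.96 kb to 95.8 kb, neither replicate had a peak, although shared peaks lay just before MIR521-1. So peaks touched only MIR512-1, MIR512-2 and MIR1323, and MIR512-2 alone in both replicates. The 4 hairpins of the MIR371 to MIR373 group lay among or between the peaks past the 3′ end of C19MC. Many C19MC hairpins are close copies of one another. How the authors treated reads that match several places is not given in the sources used here, and the part of such reads in the stretch without peaks was not tested.

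**Figure D3:**
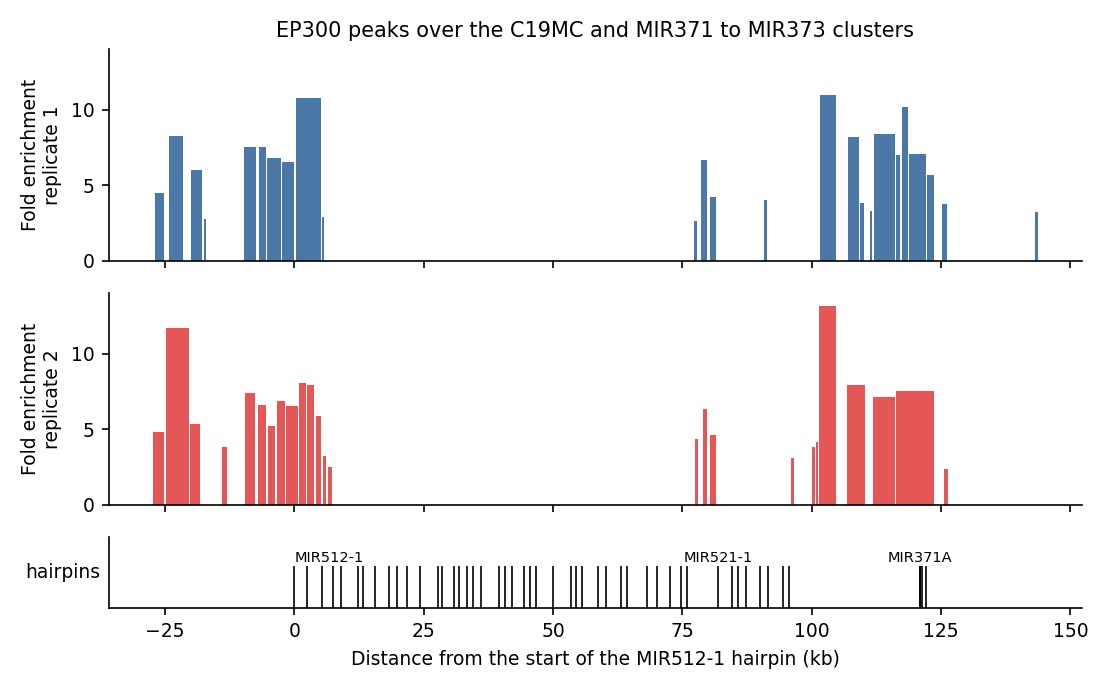
EP300 peaks of replicate 1 (top) and replicate 2 (middle) across C19MC and the MIR371 to MIR373 cluster, with fold enrichment on the y axis, distance from the start of the MIR512-1 hairpin in kb on the x axis and hairpins as vertical lines (bottom). Bar widths are peak widths. Peaks of both replicates lie before and at the first hairpins and again from 77.2 kb on, and none lies between 7.20 kb and 77.2 kb.

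Of the epithelial microRNAs, 5 of 9 genes had regions, 12 in all, and 7 of the 8 hairpins had a peak over them in both replicates. The median percentile of the 12 regions was 29.7, beside 56.5 for all regions. At or above the 90th was 1 of the 12, beside 11.3% of all regions. The MIR200B region was the longest of all microRNA gene regions, at 10961 bp (chromosome 1, 1156137 to 1167097). After the MIR512-2 and MIR371A regions the next in length was that of MIR6775, with 7080 bp, 8.41 and 9.30. The MIR200B region was 3 peaks in replicate 1 and 1 in replicate 2, with 16.3 and 17.0, and ended 0.007 kb from the MIR200B hairpin. In replicate 1 the 16.3 belonged to the peak that ended 5601 bp from the hairpin, and the peak next to the hairpin had 7.71. The next region, assigned to MIR429, had 3.24 and 3.26 and covered MIR200A and MIR429. MIR203A, a skin microRNA, had 9.24 and 8.17. MIR205HG had 5.92 and 6.79 at its strongest. The strongest region of MIR205, with 4.01 and 4.39, lay 16983 bp from its start, and the one over its hairpin had 3.74 and 3.22. The other MIR200 cluster, MIR200C and MIR141 on chromosome 12, lay under a region with 18.99 and 15.3 that the annotation gave to PTPN6, so its peaks are not among the members.

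In the neural list 11 of 29 genes had regions, 23 in all, and 7 of the 23 were at or above the 90th percentile. Over all regions this share was 11.3%, and over host transcript regions 15.1%. Among the 7 were both regions at annotated starts of MIR124-1HG, the stronger region of MIR124-2HG and a pair assigned to MIR9-1HG. The second of that pair, with 11.9 and 11.8, lay over the MIR9-1 hairpin. The others of the 7 were MIR219A1 with 11.98 and 12.9 and MIR124-3 with 12.2 and 12.2 (7.45 with the mean over summits), both over the hairpin. The MIR219A1 region also lay within 1 kb of the start of the coding gene RING1, and which gene it serves was not tested. MIR9-3HG followed with 10.6 and 10.995. MIR219A2, which makes the same miR-219a-5p as MIR219A1, had 2.74 and 3.20, so the regions of these copies stood at percentiles 91.5 and 5.81. In replicate 2 the peak over MIR219A2 was assigned to MIR219B, whose hairpin overlaps it. MIR9-2 had no region assigned. The region over its host transcript MIR9-2HG, with 4.53 and 5.52, was listed under the symbol LINC00461 and so is not in these counts. MIR129-1, a neuronal microRNA, had 3 regions, none over its hairpin. The strongest, with 6.83 and 8.59, lay 40451 bp from its start in replicate 1, and the nearest lay 6310 bp from it. MIR137HG, MIR7-2 and MIR138-2 had 1 region each, from 3.55 to 4.70 in replicate 1 and from 3.22 to 7.20 in replicate 2. The median percentile over the 23 regions was 57.7, beside 56.5 for all regions. Peaks of both replicates lay over 7 of the 20 hairpins of this list.

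**Figure D4:**
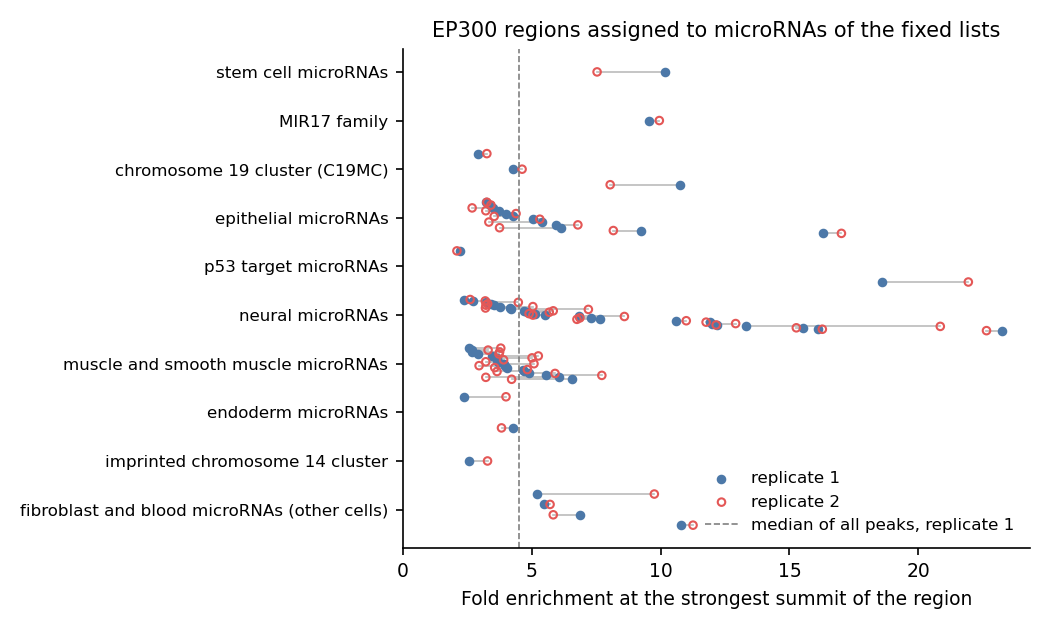
Fold enrichment (x) of the reproducible regions assigned to genes of each microRNA list (y), with replicate 1 as filled and replicate 2 as open circles joined by a line for each region. The dashed line is the median of all peaks of replicate 1 (4.51). The neural list reaches 23.3 and the muscle list stays under 8 in both replicates.

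Of 14 muscle and smooth muscle microRNA genes 7 had regions, 17 in all, with a median percentile of 27.5. Peaks of both replicates lay over 3 of the 11 hairpins of this list. A stronger region over MIR1-1HG, with 9.02 and 8.81 at percentile 82.0, was assigned to its antisense transcript MIR1-1HG-AS1 and is not in these counts. MIR145, a smooth muscle microRNA, had 8 of the 17 regions over 23.7 kb. The strongest, with 5.55 and 7.72, lay 10745 bp from its start, and the one over its hairpin had 3.47 and 5.25. MIR143, its cluster partner, had 6.57 and 4.22 over its hairpin. The regions of MIR1-1, MIR133A2, MIR206 and MIR208A, genes of heart and skeletal muscle, ran from 2.55 to 3.97 in replicate 1 and from 2.96 to 5.01 in replicate 2.

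The remaining lists had few members with a region. Of 11 p53 target microRNAs, MIR34AHG had 2, the one above and one with 2.21 and 2.10, while MIR34B lay under a region given to BTG4, with 7.27 and 8.86. In the endoderm list 2 of 9 had one, MIR122HG of the liver microRNA miR-122 with 4.27 and 3.83, and MIR375, known from pancreatic islets, with 2.39 and 4.0. No microRNA gene of the HOX clusters had one, of 6. In the imprinted cluster of chromosome 14, 1 of 47 did, MIR431 with 2.56 and 3.28. Of 23 microRNAs of fibroblasts and blood cells 4 did, MIR155HG with 10.8 and 11.3, MIR199B with 6.89 and 5.83, MIR146A with 5.49 and 5.71 and MIR150 with 5.21 and 9.76. The blood microRNA MIR142 lay under a region listed under an Ensembl identifier, with 5.97 and 11.9. Hairpins with a peak over them in both replicates were 4 of 19 in this list. They were 1 of 8 for p53 targets, 1 of 7 for endoderm, 0 of 6 for HOX and 0 of 45 for chromosome 14.

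Since the assignment follows the nearest start, the hairpins themselves were also examined, a step added after the data had been seen. Of 1911 RefSeq hairpins 247 lay under a reproducible region of any gene (12.9%, Wilson 95% interval 11.5 to 14.5). Of these, 211 had a peak over the hairpin itself in both replicates, and the other hairpins had none over them in at least one replicate. The region was among those described here, with a symbol of MIR and a digit in both replicates, for 84 hairpins. For 11 it had another microRNA symbol or had one in 1 replicate only, such as MIRLET7I or MIR1538, and for 152 it had no microRNA symbol. Median fold enrichment of the region was 5.54 in replicate 1 and 5.79 in replicate 2 for the 84, and 8.13 and 8.80 for the 152. Of the 152, 100 (65.8%) lay under a region within 1 kb of a coding start, and of the 84 it was 6 (7.14%). Over all reproducible regions the share was 28.3%. The assignment itself split these groups, and it gives a peak near a coding start to that coding gene. The contrast between them therefore follows in part by construction. Examples among the 152 were MIR3197 under a region of BACE2 with 24.7 and 30.1, MIR4710 under INF2 with 25.8 and 23.9, and MIR4674 under NOTCH1 with 24.1 and 22.2. MIR425 and MIR191 lay under one region given to NDUFAF3, with 21.9 and 19.9. MIR301B and MIR130B lay under a region listed under an Ensembl identifier, with 19.4 and 21.0.

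**Figure D5:**
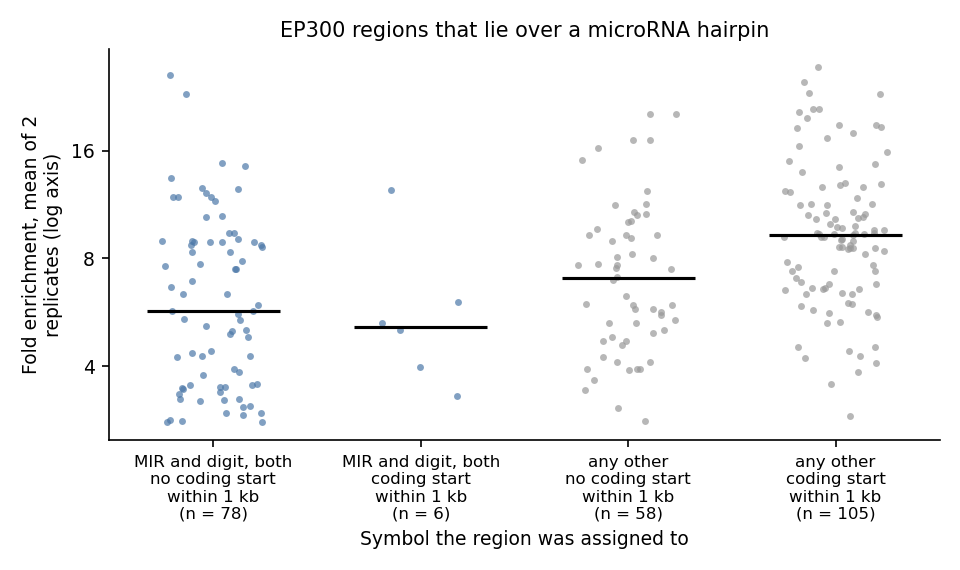
Mean fold enrichment of the 2 replicates (y, log axis) for the 247 hairpins under a reproducible region, by whether the region was assigned to a symbol of MIR and a digit in both replicates or to any other, and by whether a coding start lay within 1 kb (x). Points are hairpins, placed at the value of their region, and horizontal lines are medians. The 105 hairpins at coding starts in the second class have the highest median.

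Promoter sequence could be examined at host transcripts, since 16 windows (250 bases before to 50 after a RefSeq start, RefSeq GRCh38.p14) lay wholly under regions of microRNA genes, all of host transcripts and 2 of them of MIR9-3HG. Motifs were searched by their letters on both strands. GGGCGG (KLF and SP factors) was in 9 of the 16 (56.2%), beside 45.0% of all 34961 windows and 74.0% of the 13963 windows under any region. GCCNNNGGC (TFAP2) was in 8 (50%), beside 23.2% and 36.7%. CCGGAAG (ETS) was in 3 (18.8%), beside 10.3% and 16.7%. ATGCAAAT (POU) was in 2 (12.5%), those of MIR3142HG and MIR210HG, beside 1.77% and 0.981%. GGAATG (TEAD) was in 1 (6.25%), beside 14.04% and 10.1%, and TGANTCA (AP-1) in 1, beside 7.68% and 4.03%. CACGTG (E-box) was in 0, beside 7.27% and 9.79%. The median GC content was 69.7% for the 16, 58.7% for all and 68% for windows under any region. A GGGCGG match can overlap a GCCNNNGGC match. The windows of MIR34AHG (chr1:9182289-9182588, minus strand) and MIR17HG (chr13:91347437-91347736, plus strand), host transcripts whose regions are described above, are shown 5′ to 3′ on the strand of the gene, with matches to any of these motifs in capitals. They held GGGCGG and GCCNNNGGC and none of the other motifs.
MIR34AHG: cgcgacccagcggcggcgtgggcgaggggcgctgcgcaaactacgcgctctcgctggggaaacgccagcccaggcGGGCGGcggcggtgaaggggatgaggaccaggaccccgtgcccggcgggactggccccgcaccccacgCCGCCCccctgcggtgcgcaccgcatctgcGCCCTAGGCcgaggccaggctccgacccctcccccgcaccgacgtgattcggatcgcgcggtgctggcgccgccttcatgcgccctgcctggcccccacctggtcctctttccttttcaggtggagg
MIR17HG: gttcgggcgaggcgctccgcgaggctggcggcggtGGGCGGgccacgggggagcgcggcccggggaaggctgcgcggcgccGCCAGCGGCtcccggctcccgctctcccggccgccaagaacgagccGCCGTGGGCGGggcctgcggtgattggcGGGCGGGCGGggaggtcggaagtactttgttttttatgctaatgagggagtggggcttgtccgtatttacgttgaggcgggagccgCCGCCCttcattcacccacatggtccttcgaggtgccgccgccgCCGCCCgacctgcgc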

How the data were processed

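EP300 ChIP-seq of naive H9 cells was analysed from 1 peak table per EP300 sample (n = 2). The submitters' processing notes name fastp 0.19.11 and GRCh38. The aligner, peak caller and handling of duplicates were not given in the sources used here. Per the file headers and names, the authors annotated peaks with ChIPseeker. Each deposited entry is 1 summit, with a fold enrichment (a ratio), and with its p-value and q-value as -log10, per the file headers. The deposited score was not used. The largest q was 0.0497 in replicate 1 and 0.0498 in replicate 2.

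Entries of one interval were joined, keeping the highest fold enrichment. Peaks overlapping by at least 1 bp between replicates were merged into reproducible regions with Python 3.11.15, numpy 2.4.6, pandas 2.3.3 and scipy 1.17.1. The merging was tested on simulated data. No test between groups was possible with 1 condition, so counts, medians and Wilson 95% intervals are given beside all peaks. Replicate numbers pair no samples.

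The members and lists were chosen with earlier results of these data known. Genes named were the 15 strongest regions of microRNA genes proper and the 10 strongest of host transcripts, by the lower percentile, the 8 genes with most regions, the 4 strongest single-replicate peaks, the 4 longest regions, and up to 8 genes per list. Alternatives covered overlap, fold enrichment, q, distance, host names, summits and single replicates. Sequences came from RefSeq tables of GRCh38.p14.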

Additional observations from a re-analysis of the deposited data

How the results depend on the processing

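The share of microRNA gene peaks shared between replicates, 65.8%, was 50.5% when an overlap of 50% of both peaks was required, 77.4% for peaks of fold enrichment of at least 5, 70.4% for -log10 q of at least 5, 64.9% without host and antisense names and 68.2% within 10 kb of the assigned start. It cannot be given from a single list. The 718 regions became 256, 382 and 391 under fold enrichment, q and distance, and single lists held 1168 to 1177 peaks. The share within 3 kb of the start, 31.3%, became 38.2% and 35.7% under fold enrichment and q, 28.4% without host names and 58.2% within 10 kb. The median fold enrichment, 3.97, became 6.95, 5.45, 3.87 and 4.02 under the same settings, and 3.89 with the mean over summits. The 353 genes became 181 under fold enrichment of at least 5. The median fold enrichment over the named genes, 10.6, became 11.5 with the stricter overlap, 13.6, 12.8, 9.05 and 9.70 under fold enrichment, q, host names and distance, and 7.80 with the mean over summits. Fewer peaks enter under the stricter filters, and the mean over summits replaces the highest summit of a peak, both by construction. The limit of 10 kb removes only peaks that lie beyond 3 kb, so it must raise the share within 3 kb.

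Of 415 values of 58 named genes under these settings, 12 moved by over 1.5-fold. MIR4689 fell from 13.2 to 4.10 and MIR595 from 7.84 to 3.90 within 10 kb, and MIR200B from 16.6 to 7.52 and MIR5008 from 19.3 to 10.6 with the mean over summits. MIR1323, 3.09 over both replicates, was 5.86 in replicate 2 alone. No paired analysis was possible because there is 1 group with no control table. Depth is unknown, so what it limits cannot be stated.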
